A study of Homo sapiens with 60 samples.

Results

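High-dose and low-dose Aconiti Lateralis Radix Preparata, the processed lateral root of aconite, were compared in 5 of the 60 libraries of the series: 2 libraries at 500 µg/mL (replicates 2 and 3) and 3 libraries at 20 µg/mL. The comparison takes all libraries of both doses except replicate 1 of the high dose, which was left out for a strong relation between its read counts and GC content. RNA was sequenced from SW1783, an established human astrocytoma line, which was kept in L-15 (Leibovitz) medium and received a 70% ethanol extract or the DMSO vehicle for 24 h. The series covers 6 herbs and 2 formulas at 3 doses each, and per the labels it describes such extracts by the expression they cause in cultured cells. All 5 libraries carry the set number 13 in their names, together with the medium dose of Aconiti (100 µg/mL) and the 3 doses of Bupleuri Radix, of which the high dose (210 µg/mL) and low dose (8.4 µg/mL) serve below for a comparison of responses. The vehicle libraries (0.1% DMSO in their labels, 2% in the series text) belong to another set, so their levels are shown as a reference without a test, and set and treatment cannot be told apart there. The labels do not say whether replicates came from separate cultures. The p-values therefore measure only how much these libraries vary, which may be technical.

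Aconite root is known for diterpenoid alkaloids that act on voltage-gated sodium channels, and the processing of the root hydrolyses the most toxic of them. Plant extracts also carry electrophiles and aromatic compounds that cultured cells sense through 2 well-described systems. Electrophiles release the transcription factor NRF2 from KEAP1, which raises haem oxygenase, glutathione synthesis and NADPH-making enzymes. Aromatic ligands bind the aryl hydrocarbon receptor (AhR), which raises CYP1 enzymes and its own repressors. A further system, the integrated stress response, raises the transcription factor ATF4 and with it genes of amino acid supply. The inflammatory cytokines of astrocytic cells are under the control of NF-kB and AP-1.

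Promoters of 6 genes that stand for the AhR, ATF4 and cytokine groups below are shown first, because those groups rose. The sequences are RefSeq's, on GRCh38.p14, and cover the 250 bases before the annotated start, read 5′ to 3′ on the gene's strand. CYP1A1 lies at chr15:74725529-74725778 (minus strand), TIPARP at chr3:156674340-156674589 (plus), CHAC1 at chr15:40953221-40953470 (plus), ASNS at chr7:97872409-97872658 (minus), CXCL8 at chr4:73740319-73740568 (plus) and IL11 at chr19:55370464-55370713 (minus). Capitals mark matches, on either strand, to the core of the xenobiotic response element GCGTG in CYP1A1 and TIPARP, to the CEBP-ATF response element TGATGNAA in CHAC1 and ASNS, and to the AP-1 site TGANTCA in CXCL8 and IL11, with the TATA box TATAAA also marked in CXCL8.
CYP1A1: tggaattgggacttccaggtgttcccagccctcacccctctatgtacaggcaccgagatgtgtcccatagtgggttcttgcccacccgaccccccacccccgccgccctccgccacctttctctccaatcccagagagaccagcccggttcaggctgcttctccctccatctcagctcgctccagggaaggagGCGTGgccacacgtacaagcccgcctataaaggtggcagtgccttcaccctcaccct
TIPARP: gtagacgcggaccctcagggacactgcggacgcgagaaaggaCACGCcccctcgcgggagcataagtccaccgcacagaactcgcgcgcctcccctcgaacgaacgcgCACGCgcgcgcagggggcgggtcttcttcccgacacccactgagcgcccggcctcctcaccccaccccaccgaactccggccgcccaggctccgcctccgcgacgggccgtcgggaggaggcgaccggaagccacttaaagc
CHAC1: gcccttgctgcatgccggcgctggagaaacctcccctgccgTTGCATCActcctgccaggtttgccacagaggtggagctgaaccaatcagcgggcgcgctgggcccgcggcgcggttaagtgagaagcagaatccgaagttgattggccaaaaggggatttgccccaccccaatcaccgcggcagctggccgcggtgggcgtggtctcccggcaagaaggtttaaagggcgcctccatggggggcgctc
ASNS: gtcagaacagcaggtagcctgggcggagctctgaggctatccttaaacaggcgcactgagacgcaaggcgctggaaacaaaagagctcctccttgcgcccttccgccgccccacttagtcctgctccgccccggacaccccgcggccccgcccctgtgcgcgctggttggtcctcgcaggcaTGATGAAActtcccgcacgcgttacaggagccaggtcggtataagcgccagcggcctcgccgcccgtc
CXCL8: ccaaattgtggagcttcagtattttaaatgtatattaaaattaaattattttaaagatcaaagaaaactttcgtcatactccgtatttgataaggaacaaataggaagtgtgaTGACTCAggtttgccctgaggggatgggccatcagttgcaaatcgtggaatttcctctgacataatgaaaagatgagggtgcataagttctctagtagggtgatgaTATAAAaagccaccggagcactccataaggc
IL11: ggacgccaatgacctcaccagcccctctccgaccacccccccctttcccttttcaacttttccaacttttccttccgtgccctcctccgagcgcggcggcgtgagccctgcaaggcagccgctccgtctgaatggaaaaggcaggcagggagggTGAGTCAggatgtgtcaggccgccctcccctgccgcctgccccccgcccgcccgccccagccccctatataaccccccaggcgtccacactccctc

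The motifs were searched on both strands in windows of 300 bases (250 before and 50 after the start) of the 11225 tested genes that had an entry. The xenobiotic core was in 49.9% of all windows and in all 4 matched AhR genes that rose (TIPARP, AHRR, CYP1A1 and NQO1). CEBP-ATF elements were in 1.68% of all windows and in 4 of 16 matched ATF4-list genes that rose (ATF3, ASNS, SLC3A2 and CHAC1). AP-1 sites were in 4.95% of all windows and in 3 of 12 matched cytokine-list genes that rose (IL1A, CXCL8 and IL11). A TATA box was in 5.91% of all windows, in 5 of the 8 matched genes among the 12 largest rises (CXCL8, KRTAP1-5, KRTAP2-3, ANGPTL4 and FOSB) and in 0 of the 10 matched genes among the 12 largest falls. The xenobiotic core was also in 11 of 16 ATF4-list genes and in 6 of 8 replication genes that fell. The antioxidant core was in 15.1% of all windows and in 2 of 9 NRF2-list genes that rose, and the sterol element in 2.56% and in 1 of 6 cholesterol genes that fell. The metal element was in 30.5% of all windows, in 5 of the 10 matched genes among the largest falls and in 0 of the 8 among the largest rises. These matches are letters in a window and are given as a description.

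Total counts of the 5 libraries ran from 17434928 to 30990226. The high-dose library left out held 11329295. Over tested genes with a mean log2 CPM above 1, GC content and the library's log2 ratio to the mean of replicates 2 and 3 had a Spearman rho of 0.926. Over the same genes the ratio had a standard deviation of 1.25, against 0.119 to 0.213 in the other libraries of set 13 and the vehicle. MT-RNR2, the large mitochondrial ribosomal RNA, made up 0.144% of its counts, against 0.969% and 0.954% in the other high-dose libraries. Relative to the low dose, its median log2 ratio ran from -2.32 in genes with 35 to 40% GC to 0.92 in genes with 65 to 70%, while replicates 2 and 3 stayed between -0.03 and 0.04 over those bins. Markers of the labelled cell type were mixed: GJA1 (connexin 43) and the glutamate transporter SLC1A3 were expressed, while the astrocyte markers GFAP, AQP4, ALDH1L1 and FABP7 had at most 9, 1, 2 and 0 counts in any library of the set.

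**Figure D1:**
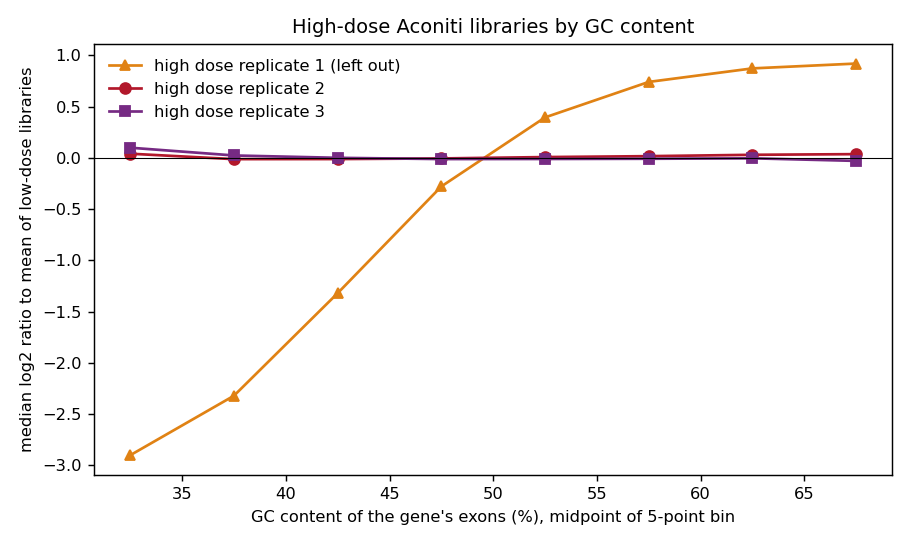
Median log2 ratio of each high-dose library to the mean of the 3 low-dose libraries (y axis) by the GC content of the gene's transcripts (x axis, percent, 5-point bins). Replicate 1, which was left out, rises from below -2.3 under 40% GC to 0.92 at the highest bin, and replicates 2 and 3 stay near 0.

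At 500 µg/mL, 1519 of 17015 tested genes (8.93%) differed from 20 µg/mL at an adjusted p under 0.05 in edgeR's quasi-likelihood test with Benjamini-Hochberg adjustment: 665 were higher (3.91%) and 854 lower (5.02%). In bulk RNA, a change in the cells present and a change in RNA per cell cannot be told apart. Most of these differences were small, with a median size of 0.28 on the log2 scale among the called genes. The rises reached further: 42 genes rose and 29 fell at least 2-fold, and 17 rose and 6 fell at least 3-fold. High-dose and low-dose libraries did not overlap in 664 of the 665 higher genes and in all 854 lower genes, where over all tested genes the groups lay apart in 20.0% upward and 20.6% downward. With the divergent library kept in, only 217 genes were called. Leaving out replicate 2 of the high dose instead gave 855 genes and leaving out replicate 3 gave 679. The spread is shared with the other libraries of the set: without replicate 3 of low-dose Bupleuri, which differed most from its mates, 2281 genes were called, an alternative chosen after seeing the data.

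**Figure D2:**
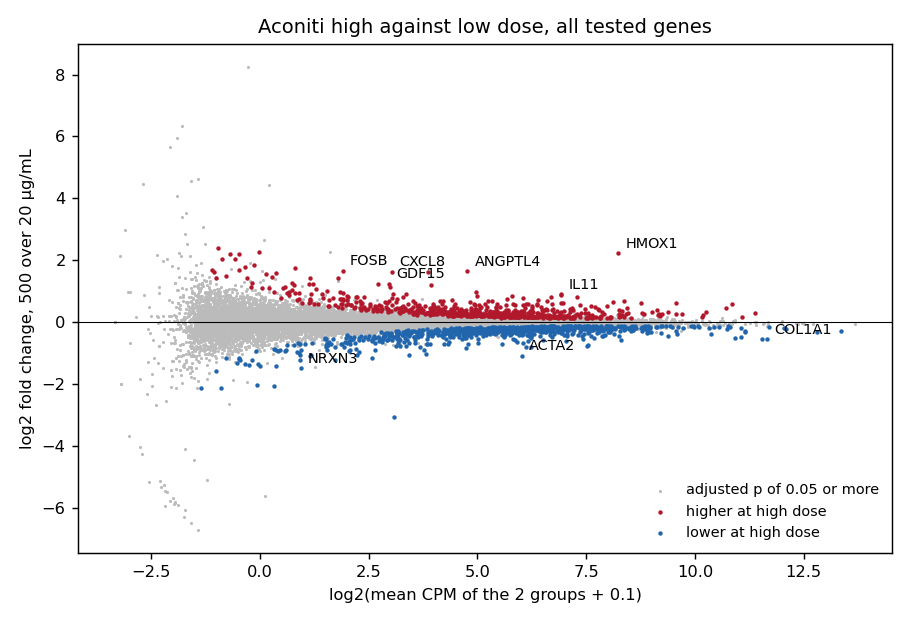
Log2 fold change of 500 over 20 µg/mL Aconiti (y axis) against the mean level of both groups (x axis, log2 of CPM plus 0.1) for every tested gene. Red and blue points are the 665 higher and 854 lower genes, and HMOX1 stands above the other genes of high level.

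HMOX1, the haem-degrading oxygenase and a classical NRF2 target (ENSG00000100292, GRCh38 chromosome 22, 35380361 to 35394214), showed the largest rise of any gene the naming rule took. Its level was 506 and 490 CPM (counts scaled to library size with TMM factors) in the high-dose libraries and 107.7, 100.4 and 110.9 CPM in the low-dose libraries. Every high-dose value lay far above every low-dose value, with a log2 fold change of 2.22 ± 0.05 (SE; adjusted p = 2.16e-20). The medium dose had a mean of 266 CPM and the vehicle 58.5 CPM, so the 4 groups stood in the order of dose. The left-out library held 887 CPM, and with it the log2 fold change was 2.56 ± 0.17 (adjusted p = 4.98e-06).

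NRF2 genes rose beside it. Of 25 tested members of the NRF2 and NADPH list, 12 rose and 0 fell, with a median log2 fold change of 0.22 against -0.00068 over all tested genes. SLC7A11, the cystine importer that feeds glutathione synthesis, was at 195 and 200.4 CPM at the high dose and at 114, 116 and 112 CPM at the low dose (log2 fold change 0.79 ± 0.06, adjusted p = 8.15e-09). The high-dose libraries lay well above, as they did for TXNRD1 (thioredoxin reductase, 346 and 346 against 269, 266 and 263 CPM) and for GCLM (the regulatory subunit of glutamate-cysteine ligase, 118 and 125 against 91, 91 and 89.2 CPM). The left-out library lay below the low dose for all 3, at 37.05, 217 and 25.8 CPM for SLC7A11, TXNRD1 and GCLM. With it kept in none of the 3 passed (edgeR, adjusted p = 0.554, 0.409 and 0.993), and with GC offsets added SLC7A11 (0.82 ± 0.07) and TXNRD1 (0.30 ± 0.06) passed while GCLM did not (0.26 ± 0.11, adjusted p = 0.232). FTL, the light chain of the iron store ferritin, rose from 1380 to 1455 CPM at the low dose to 1961 and 1947 CPM. AKR1C1, an aldo-keto reductase with close copies whose reads may be shared, rose by 0.67 ± 0.06 on the log2 scale, and OSGIN1 by 0.51 ± 0.07.

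All 6 tested members of the AhR list rose, out of 9 in the file, with a median log2 fold change of 0.62. With the left-out library kept in, 4 of the 6 rose, both without and with GC offsets. TIPARP, a mono-ADP-ribosyltransferase that represses the receptor, was at 62.7 and 65.4 CPM at the high dose and at 38.5, 38.6 and 37.5 CPM at the low dose (0.75 ± 0.05, adjusted p = 5.25e-10). CYP1A1, the receptor's best-known target, stayed at a low level with 1.95 and 1.91 CPM against 0.923, 0.785 and 0.908 CPM (1.14 ± 0.24, adjusted p = 0.00225). Both groups were tight and apart for each gene, and for AHRR (the receptor's repressor, 58.5 and 58.3 against 44.9 to 47.2 CPM) as well. CYP1B1, the abundant CYP1 enzyme here, was at 205 and 204 CPM against 149 to 158 CPM, and NQO1, a quinone reductase under both AhR and NRF2, at 229 and 231 against 159 to 165 CPM. In the left-out library TIPARP (19.8 CPM) and CYP1B1 (128 CPM) lay below the low dose. With it kept in neither passed (edgeR, adjusted p = 0.423 and 0.36). With GC offsets added TIPARP passed, while CYP1B1 and AHRR did not (edgeR, adjusted p = 0.686 and 0.438). ALDH3A1, an aldehyde dehydrogenase of the same list, rose by 1.57 ± 0.35 at levels of 1.43 and 2.17 against 0.288 to 0.768 CPM, and lost its call without replicate 3 of the high dose (adjusted p = 0.168).

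Genes of the ATF4 response rose together by small amounts: 17 of 28 tested members were higher, 0 lower, with a median of 0.28 on the log2 scale. SLC7A5, the large neutral amino acid transporter, was at 250 and 234 CPM at the high dose and at 172, 171 and 176 CPM at the low dose (0.48 ± 0.04). Its partner chain SLC3A2 rose by 0.30 ± 0.05, asparagine synthetase ASNS by 0.39 ± 0.05 and the pseudokinase TRIB3 by 0.44 ± 0.06. ATF4 itself was at 128 in both high-dose libraries and at 109 to 111 CPM at the low dose, a rise of 0.21 ± 0.05 (adjusted p = 0.00333). DDIT3, the proapoptotic factor CHOP, rose by 0.38 ± 0.07 and ATF3 by 0.77 ± 0.14. CHAC1, which degrades glutathione, rose by 0.50 ± 0.12 but lost its call without either high-dose library. The stress cytokine GDF15, which is also a p53 target, had the largest change of the list (1.23 ± 0.09, adjusted p = 1.28e-09). It was at 11.2 and 10.7 CPM against 4.04, 4.97 and 4.79 CPM. With the left-out library kept in, 8 list members rose, and 6 with GC offsets added. In the fit with both, ATF4, SLC3A2, ASNS, TRIB3 and CHAC1 did not pass (edgeR, adjusted p = 0.544, 0.238, 0.185, 0.0916 and 0.162). SLC7A5, DDIT3, ATF3 and GDF15 passed there. Of 14 tRNA synthetases and amino acid transporters 7 rose and 0 fell, with SLC7A5 and SLC3A2 counted in both lists. That count was 3 without replicate 2 and 4 without replicate 3 of the high dose.

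Chaperones of the endoplasmic reticulum did not share one direction: of 19 tested, 3 rose and 3 fell. DNAJB9, a co-chaperone, rose by 0.37 ± 0.06, while HSP90B1 (GRP94) went from 1602 to 1606 CPM at the low dose down to 1410 and 1436 CPM (-0.18 ± 0.03). HSPA5 (BiP), the main chaperone of the compartment, fell by 0.15 ± 0.03, a call lost without replicate 2 of the high dose. The 6 calls of this list became 2 and 3 without replicate 2 and without replicate 3 of the high dose.

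Inflammatory cytokines gave the highest list median, 1.00 on the log2 scale, with 14 of 20 tested members higher and 0 lower (23 were in the file). IL11, an IL-6-family cytokine (ENSG00000095752, chromosome 19, 55364389 to 55370463) whose AP-1 match is printed above, was at 157 and 158 CPM at the high dose and at 91.2, 82.6 and 81.3 CPM at the low dose (0.89 ± 0.05, adjusted p = 2.15e-11). CXCL8, the neutrophil chemokine IL-8 (ENSG00000169429, chromosome 4, 73740506 to 73743716), was at 11.7 and 12.6 CPM against 3.92, 3.92 and 3.98 CPM (1.62 ± 0.12, adjusted p = 1.21e-09). In both genes every high-dose value exceeded every low-dose value by far more than the groups' own spread. CXCL8 was at 3.54 CPM in the left-out library, and with that library kept in the adjusted p was 0.0519. LIF, of the same family as IL11, was at 40.8 and 40.0 against 20.0 to 25.0 CPM, and IL1B at 9.58 and 8.6 against 3.71 to 4.02 CPM. PTGS2, the inducible cyclooxygenase, rose from 69.8 to 82.5 CPM to 131 and 133 CPM. In the left-out library PTGS2 was at 37.05 CPM, below the low dose. Keeping that library in, it did not pass (edgeR, adjusted p = 0.412), but it passed once GC offsets were added. IL6 was at 10.7 and 10.9 CPM against 6.00, 3.77 and 5.17 CPM (1.12 ± 0.13, adjusted p = 7.72e-07).

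The increase did not extend to every NF-kB target. NFKBIA, the feedback inhibitor of NF-kB, differed by 0.14 ± 0.05 (adjusted p = 0.144), and the chemokine CCL2 by 0.16 ± 0.10 (adjusted p = 0.414) with overlapping groups, while TNFAIP3, another feedback inhibitor, rose by 0.39 ± 0.07. IL24, a further cytokine among the 12 largest rises, was at 1.67 and 1.63 CPM against 0.462 to 0.664 CPM. Interferon-stimulated genes did not share the rise: of 22 tested, 3 fell and 0 rose (1 fall without replicate 2 of the high dose or replicate 2 of the low dose), among them IFI44L (-0.42 ± 0.06).

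**Figure D3:**
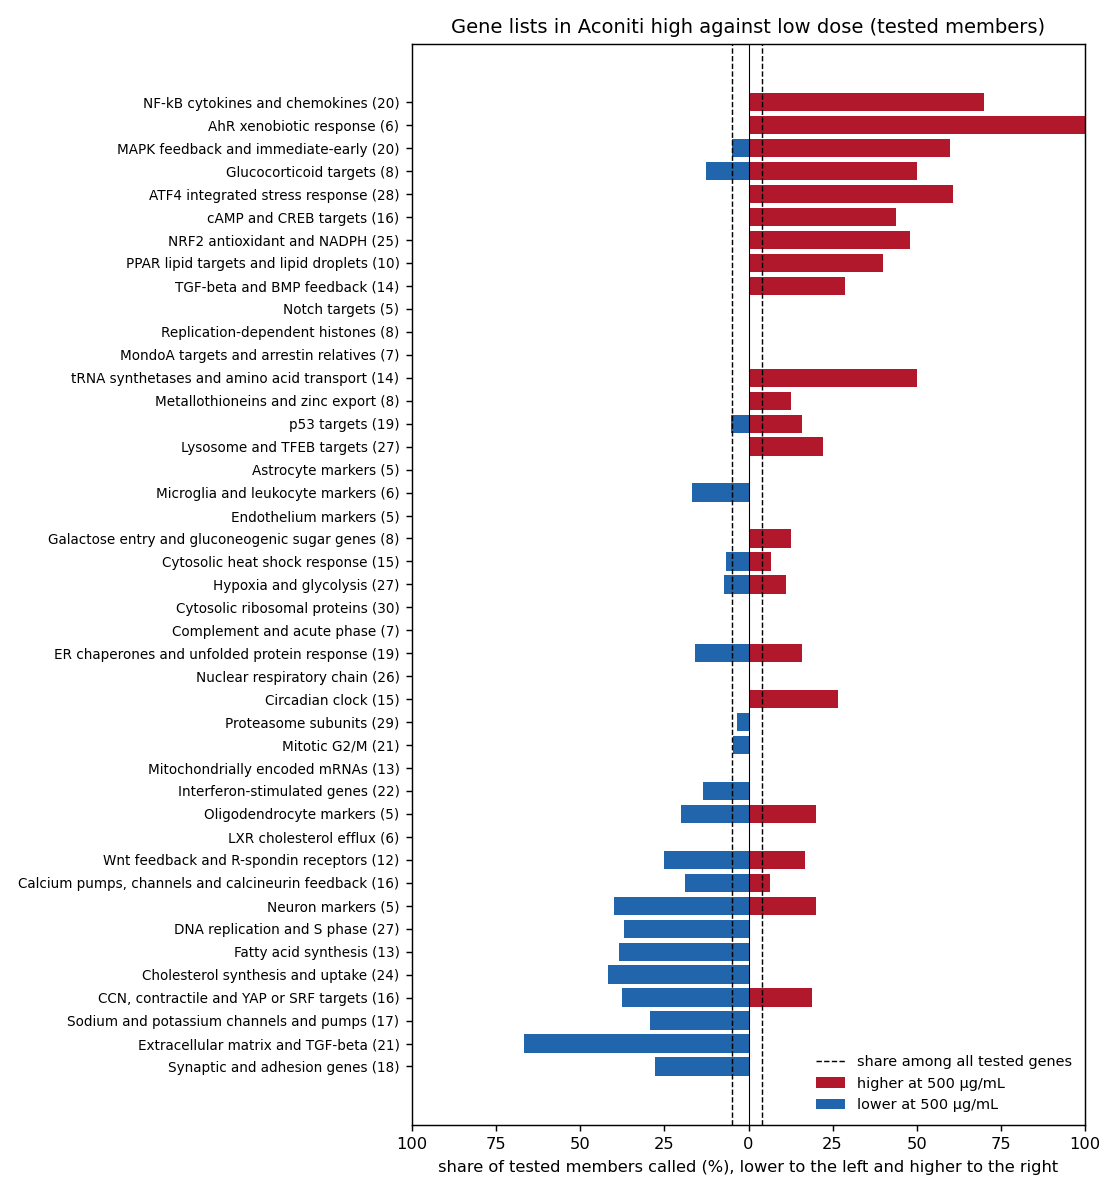
Share of tested members of each gene list called higher (red, to the right) or lower (blue, to the left) at 500 than at 20 µg/mL, ordered by the list's median log2 fold change, with the number tested in brackets. Dashed lines mark the shares among all tested genes, 3.91% higher and 5.02% lower.

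Growth factor, calcium and cAMP signalling switch on immediate-early genes within minutes, and feedback inhibitors follow. In the list of MAPK feedback and immediate-early genes 12 of 20 rose and 1 fell (median 0.35). FOSB, an AP-1 subunit, was at 5.33 and 5.78 CPM at the high dose and at 1.39, 1.88 and 1.92 CPM at the low dose (1.66 ± 0.19, adjusted p = 8.29e-07), and FOS rose by 0.80 ± 0.14. Several feedback inhibitors of the ERK pathway rose, though DUSP5 and SPRED2 did not pass: DUSP4 was at 153 and 149 against 96.5 to 99.7 CPM, DUSP6 rose by 0.59 ± 0.05, SPRY2 by 0.64 ± 0.06 and SPRY4 by 0.48 ± 0.05. PHLDA1 was at 341 and 334 against 205 to 223 CPM. The other 7 did not pass, among them JUN, at 117 and 118 against 114 to 118 CPM with overlapping groups (adjusted p = 0.97), and EGR1 (-0.12 ± 0.12, adjusted p = 0.651). EGR3 was the member that fell, by 0.39 ± 0.12, and it lost its call when any of 4 of the 5 libraries was left out.

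Of 16 tested cAMP and CREB targets 7 rose and 0 fell (4 without either high-dose library). DUSP1, a phosphatase that is also a glucocorticoid target, was at 71.8 and 71.7 against 44.1, 38.7 and 36.9 CPM (0.85 ± 0.06), and the orphan nuclear receptor NR4A1 rose by 0.79 ± 0.11. Among 8 glucocorticoid targets 4 rose and 1 fell. KLF9 was at 102.3 and 104.8 against 61.5 to 64.5 CPM (0.72 ± 0.05) and SGK1 rose by 0.33 ± 0.05, whereas FKBP5, a standard readout of the receptor, fell by 0.33 ± 0.10, a call lost when any of 4 of the 5 libraries was left out. NR1D1 (REV-ERB alpha) rose by 0.47 ± 0.07 among 15 clock genes, of which 4 rose and 0 fell. The clock gene PER1 was called higher in each of these lists, so their counts share a gene. Its call was lost without replicate 2 or 3 of the low dose.

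Lipid genes moved in both directions, by role. PPAR targets rose in 4 of 10 cases with 0 falls: ANGPTL4, an inhibitor of lipoprotein lipase (chromosome 19, 8363289 to 8374373), was at 42.2 and 39.6 CPM against 15.1, 12.8 and 11.9 CPM (1.64 ± 0.09, adjusted p = 2.51e-10), and PDK4, which brakes pyruvate oxidation, at 4.61 and 5.08 against 2.71, 1.31 and 1.54 CPM (1.43 ± 0.20). The lipid droplet coat gene PLIN2 rose by 0.45 ± 0.05. PDK4 stood at 0.53 CPM in the left-out library, below the low dose. Keeping that library in, PDK4 did not pass (edgeR, adjusted p = 0.253), but it passed once GC offsets were added. Cholesterol genes fell in 10 of 24 cases with 0 rises (median -0.15) and fatty acid synthesis genes in 5 of 13 (median -0.13). LSS (lanosterol synthase) fell by 0.40 ± 0.05 and HMGCS1 by 0.31 ± 0.05. SCD, the stearoyl-CoA desaturase, went from 265 to 278 CPM down to 202 and 198 CPM (-0.44 ± 0.04), and its regulator SREBF1 fell by 0.34 ± 0.05. FASN did not pass (-0.09 ± 0.07, adjusted p = 0.546). The count of 10 cholesterol genes was 5 without replicate 2 and 4 without replicate 3 of the high dose, and that of fatty acid genes 3 and 2, and 3 without any 1 of the low-dose libraries.

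Matrix and contractile genes fell. In the list of extracellular matrix and TGF-beta targets 14 of 21 members were lower and 0 higher (8 lower without replicate 3 of the high dose). COL1A1, the main chain of type I collagen (ENSG00000108821, chromosome 17, 50183289 to 50201632), was at 2674 and 2569 CPM at the high dose and at 3888, 3881 and 3796 CPM at the low dose (-0.56 ± 0.04, adjusted p = 1.19e-09). COL1A2 fell by 0.52 ± 0.03, COL3A1 by 0.59 ± 0.05 and COL5A1 by 0.48 ± 0.05. These high-dose levels lay below every low-dose level. Fibronectin (FN1) did not follow, at 5184 and 4976 against 5100 to 5316 CPM. In the left-out library COL1A1 stood at 5415 CPM, above the low dose. With that library the log2 fold change of COL1A1 was -0.12 ± 0.20, and -0.60 ± 0.06 once counts were also corrected for GC content.

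ACTA2, the smooth muscle actin of contractile cells (ENSG00000107796, chromosome 10, 88935074 to 88991339), was at 43.0 and 39.9 CPM at the high dose and at 88.7, 88.3 and 86.3 CPM at the low dose (-1.09 ± 0.05, adjusted p = 1.05e-13). The medium dose (84.9 CPM) and the vehicle (84.3 CPM) were close to the low dose. CNN1, the actin-binding calponin, was at 1.39 and 0.942 against 2.15 to 2.60 CPM, and its call was lost without replicate 3 of the high dose. TAGLN, MYL9 and TPM1, further contractile genes, fell by 0.42 ± 0.07, 0.44 ± 0.06 and 0.35 ± 0.04. Keeping in the left-out library, CNN1, TAGLN and MYL9 did not pass (edgeR, adjusted p = 0.339, 0.862 and 0.873). All of these passed once GC offsets were added. In the same list the matricellular genes CTGF and CYR61 went the other way (0.35 ± 0.05 and 0.25 ± 0.05). Of its 16 members 6 fell and 3 rose. Neither CTGF nor CYR61 passed with the left-out library kept in (edgeR, adjusted p = 0.254 and 0.0799). The same held with GC offsets added (edgeR, adjusted p = 0.786 and 0.662), where 7 members fell and 1 rose. Of 14 TGF-beta and BMP feedback genes 4 rose and 0 fell (2 rises without replicate 3 of the high dose), led by the activin subunit INHBA (119.9 and 118.7 against 71.8 to 78.5 CPM) and the BMP antagonist GREM1 (23.4 and 21.7 against 13.8 to 14.1 CPM).

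The 12 largest falls held genes of several kinds. NRXN3, a presynaptic neurexin (ENSG00000021645, chromosome 14, 78170373 to 79868290), was at 0.914 and 0.973 CPM at the high dose and at 2.71, 2.93 and 2.41 CPM at the low dose (-1.49 ± 0.21, adjusted p = 2.93e-05). RIMS1, a scaffold of the presynaptic active zone, was at 1.79 and 2.07 against 5.19, 3.35 and 4.99 CPM, and the latrophilin ADGRL3 at 1.39 and 1.38 against 2.56 to 3.35 CPM. DGKB, a diacylglycerol kinase, was at 3.82 and 3.48 against 7.67, 7.90 and 8.84 CPM (-1.17 ± 0.12). In the list of 18 tested synaptic and adhesion genes, which holds NRXN3 but not RIMS1, ADGRL3 or DGKB, 5 fell and 0 rose (3 without replicate 3 of the high dose). The chemokine CXCL12 and its scavenging receptor ACKR3 were both lower: CXCL12 was at 9.50 and 8.85 against 17.4 to 19.4 CPM (-1.03 ± 0.08) and ACKR3 at 1.15 and 0.973 against 2.35 to 2.77 CPM. PADI2, which citrullinates proteins, was at 6.88 and 6.87 against 13.7 to 15.4 CPM. PAPLN, a matrix protein, fell by 1.44 ± 0.31, a call lost without replicate 3 of the high dose, and CCDC85A by 1.05 ± 0.19.

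**Figure D4:**
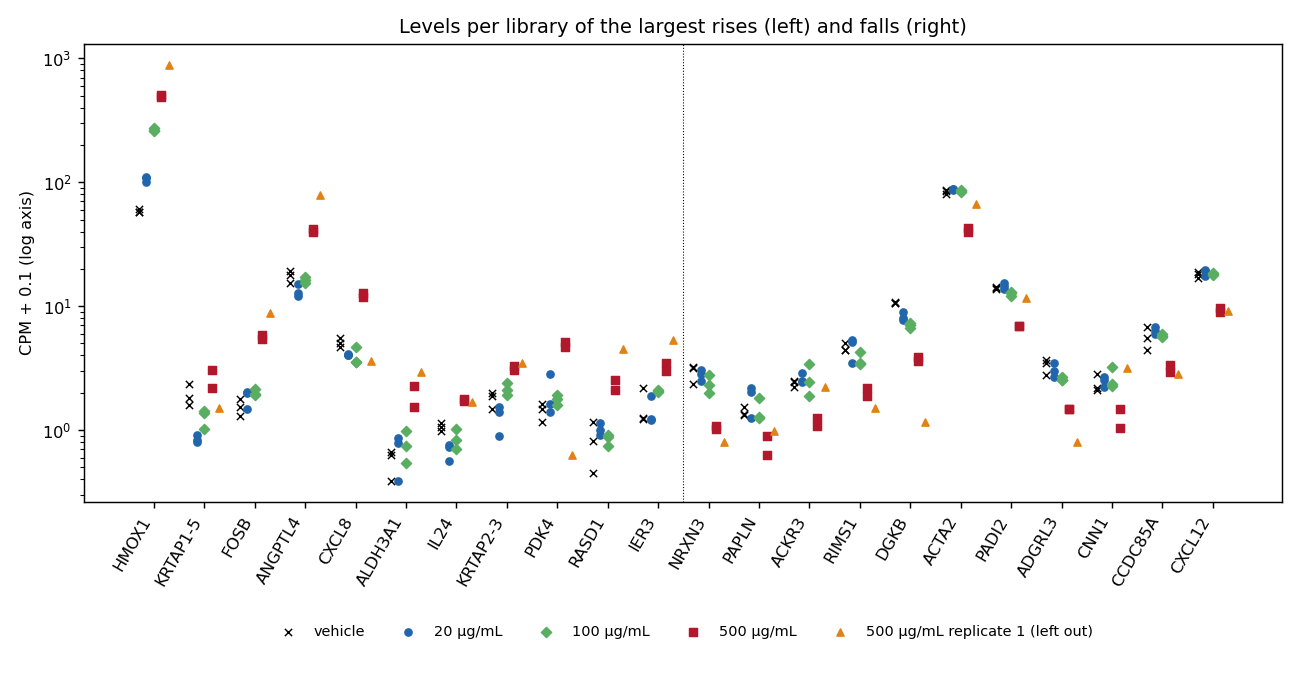
CPM plus 0.1 (y axis, log scale) in each library of the vehicle and of 3 Aconiti doses for the largest rises (left of the dotted line) and falls (right). Red squares (500 µg/mL) lie beyond all blue circles (20 µg/mL) in every gene shown because the naming rule required it. The triangle is the left-out library.

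Ion transport genes were listed because aconite alkaloids act on sodium channel proteins. Of these, 0 of 17 tested sodium and potassium channel and pump genes rose and 5 fell. Without replicate 1, 2 or 3 of the low dose, 3, 4 and 3 of them fell. The voltage-gated sodium channel gene SCN9A was 1 of the 5, and the size of its fall is not reported here. KCNMA1, the calcium-activated BK channel, was at 74.2 and 70.7 against 108.3 to 110.0 CPM (-0.59 ± 0.05), the sodium pump's beta subunit ATP1B1 at 94.8 and 98.2 against 118 to 125 CPM, and the sodium-calcium exchanger SLC8A1 fell by 0.41 ± 0.06. With the left-out library kept in, ATP1B1 and SLC8A1 did not pass (edgeR, adjusted p = 0.197 and 0.142). Once GC offsets were added SLC8A1 passed and ATP1B1 did not (edgeR, adjusted p = 0.142). In a separate list of calcium pumps, channels and calcineurin feedback genes, 1 of 16 tested members rose and 3 fell. These shares were 6.25% and 18.8%, against 3.91% and 5.02% over all tested genes. RCAN2, a calcineurin regulator, fell by 0.70 ± 0.06 and the plasma membrane calcium pump ATP2B4 by 0.46 ± 0.07. ATP2A3, a calcium pump of the endoplasmic reticulum, rose by 0.93 ± 0.15.

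Cell cycle genes moved little. Among 27 replication genes 10 fell and 0 rose, with a median of -0.12, and the polymerase subunit POLA1 fell by 0.32 ± 0.05. Without replicate 2 or 3 of the high dose, 4 and 3 of them fell. Of 21 mitotic genes 1 fell (TPX2, -0.13 ± 0.04, a call lost when any of 4 of the 5 libraries was left out). MKI67, the proliferation marker, differed by -0.13 ± 0.18 (adjusted p = 0.774). CDKN1A, the p53 target p21, rose by 0.39 ± 0.05, and of 19 p53 targets 3 rose and 1 fell. TXNIP differed by 0.21 ± 0.09 (adjusted p = 0.176). MT-RNR2 fell by 0.29 ± 0.05, while 0 of 13 mitochondrial mRNAs and 0 of 26 nuclear respiratory chain genes passed the test.

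Markers of other cell types were followed as whole lists. Summed over 4 tested epithelial markers of 9, the level was 224.9 to 230.5 CPM at the low dose and 153.5 and 158.8 CPM at the high dose, with KRT18 (-0.57 ± 0.04) and KRT8 (-0.40 ± 0.07) lower and the defining genes EPCAM and CDH1 at no more than 3 counts in any library. The 5 tested neuron markers of 10 went from 152 to 158 up to 168.9 and 174.6 CPM in sum, through TUBB3 (0.30 ± 0.05), while MAP2 and NEFL fell by 0.92 ± 0.15 and 0.87 ± 0.15. Microglia and leukocyte markers (6 of 11 tested) summed to 214 to 222 CPM and to 216 and 218 CPM, endothelial markers (5 of 9) to 27.5 to 30.8 and 29.2 to 31.4 CPM, astrocyte markers (5 of 11) to 391.5 to 398 and 382.5 to 397.7 CPM, and oligodendrocyte markers (5 of 10) to 214 to 218 and 202 to 210.1 CPM. The part of these markers in the changes above was not tested.

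Medium-dose levels lay between the low and the high dose in 9 of the 12 largest rises and in 11 of the 12 largest falls. These genes were chosen for a wide gap between the low and high dose, which favours a medium mean inside it. The share over all tested genes was not measured. The medium and high doses are set against the same low-dose libraries, so they are not independent. In CPM, the medium mean was nearer the low than the high mean in all 12 rises and all 12 falls. Examples were ANGPTL4 (16.2 CPM), CXCL8 (3.81), ACTA2 (84.9) and CXCL12 (18). On the log2 scale this did not hold for HMOX1 and KRTAP2-3. Medium minus low was 1.32 for HMOX1 and 0.86 for KRTAP2-3, where high minus low was 2.22 and 1.43. HMOX1 was at 266 CPM. Some smaller changes had medium means nearer the high dose, such as SCD (229), HMGCS1 (39.4) and CYR61 (328.5 CPM). SMIM11A and SMIM11B, near-identical genes at distant positions of chromosome 21, met the naming rule with opposite signs. Their reads cannot be assigned with confidence. They are part of the counts in this paragraph and are not described.

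The change with Aconiti was set against the change with Bupleuri Radix in the same set, as the difference of both high-against-low contrasts. This difference departed from 0 in 3792 of 17015 genes (22.3%). HMOX1 rose by 2.16 on the log2 scale with Bupleuri, and the difference of 0.06 ± 0.07 from Aconiti had an adjusted p of 0.574. GDF15 rose less with Aconiti (1.23 against 3.96, difference -2.72 ± 0.13, adjusted p = 6.8e-14), and so did PLIN2 (0.45 against 2.30) and ATP2A3 (0.93 against 3.75). IL11 changed in opposite directions with the extracts, at 0.89 with Aconiti and -0.32 with Bupleuri (difference 1.21, adjusted p = 6.45e-12), as did FOS (0.80 against -1.13) and KCNMA1 (-0.59 against 0.53). NR4A2 was at 1.67 with Aconiti and at -0.90 with Bupleuri, where it did not pass (adjusted p = 0.0703). The call of NR4A2 between the Aconiti doses was lost without replicate 3 of the high dose. KRT18 fell less with Aconiti (-0.57 against -2.04). Whole lists differed too: lysosomal genes had a median of 0.04 with Aconiti and 0.61 with Bupleuri, with a difference called in 26 of 27, and mitotic genes medians of -0.05 and -0.58, with 19 of 21 called. Of AhR genes 2 of 6 differed and of cholesterol genes 6 of 24, shares near that of all tested genes. The doses of the extracts are not matched in µg/mL, and chi-square per degree of freedom between low-dose Bupleuri replicate 3 and its mates was 12.3 and 18.04, against 2.01 to 4.76 for other pairs within the groups of the set that do not hold it or the left-out library. Without that library 3998 genes differed.

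**Figure D5:**
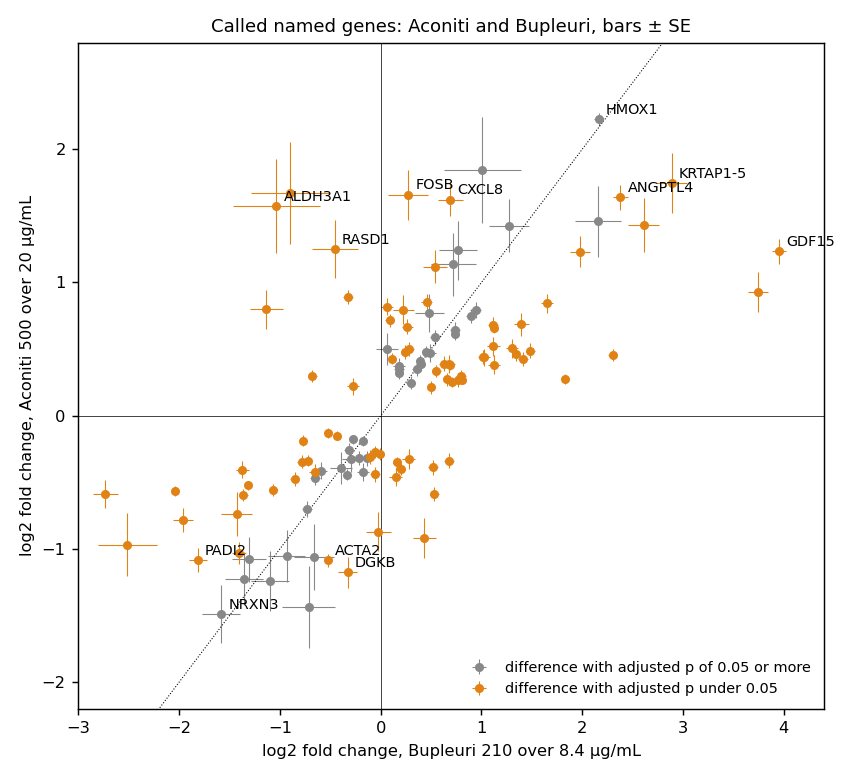
Log2 fold change of high against low dose with Bupleuri (x axis) and Aconiti (y axis) for the named genes called with Aconiti, bars showing the SE and the dotted line equal change. HMOX1 lies on the line, GDF15 (1.23 against 3.96) far to the right of it, and FOSB, RASD1 and ALDH3A1 to the left.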

How the data were processed

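The deposited table held expected counts per gene for 60 libraries, which the authors made on hg38. The submitters' processing notes list RSEM 1.3.3, STAR 2.7.3a, Trim Galore 0.6.5 and FastQC 0.11.9. Annotation and strand setting were not given in the sources used here, so genes with an antisense partner are uncertain. Values were rounded (9.18% were not whole). Names, types and positions come from GENCODE 29 (57055 of 60675 genes).

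The fit took 17 libraries of set 13, without the divergent high-dose library, and kept genes with filterByExpr (minimum count 10). Counts were TMM-scaled and tested with edgeR 4.0.16 (robust quasi-likelihood, a term per group, no replicate term, R 4.3.3), with Benjamini-Hochberg adjustment over all 17015 genes and a threshold of 0.05. The SE is the log2 fold change divided by the square root of F. The script was tested on simulated data. CPM, the values shown per library, are TMM-scaled over 21 libraries.

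The libraries, the 45 gene lists and the fixed genes were chosen with earlier results of these data known. The text names the 12 largest rises and 12 largest falls among protein-coding genes that were called, averaged 1 CPM or more over the 5 libraries and had groups that do not overlap, then list members and 10 fixed genes. Per list, called members with small p-values were preferred, up to 5, and others are named after their values were seen. Some list members are not reported here. Alternatives were other scalings, filters, sets of libraries, GC offsets, DESeq2 1.42.0, a replicate term and leaving out each library.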

Additional observations from a re-analysis of the deposited data

Results flagged for a closer look

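The 12 largest rises, the 12 largest falls and the fixed genes were screened, leaving out SMIM11A and SMIM11B. Of these, 18 had a high-against-low difference that differed between Aconiti and Bupleuri at an adjusted p under 0.05. The test was edgeR's interaction contrast, with 2 and 3 libraries of Aconiti and 3 and 3 of Bupleuri. SMIM11A and SMIM11B also passed it (adjusted p = 0.0288 and 0.00249), but their reads cannot be assigned with confidence. Over all tested genes, 22.3% differed. Values are differences of log2 fold changes, Aconiti minus Bupleuri, with the SE. More positive with Aconiti were ALDH3A1 (2.61 ± 0.56), RASD1 (1.71 ± 0.32), FOSB (1.39 ± 0.27), TXNIP (1.35 ± 0.13), CXCL8 (0.93 ± 0.17), PADI2 (0.73 ± 0.13), IL6 (0.58 ± 0.17) and CXCL12 (0.38 ± 0.11). More negative with Aconiti were GDF15 (-2.72 ± 0.13), KRTAP2-3 (-1.17 ± 0.27), KRTAP1-5 (-1.14 ± 0.29), DGKB (-0.85 ± 0.15), DDIT3 (-0.74 ± 0.09), ANGPTL4 (-0.74 ± 0.13), ACTA2 (-0.56 ± 0.06), MT-RNR2 (-0.28 ± 0.06), CDKN1A (-0.24 ± 0.07) and HMGCS1 (-0.21 ± 0.07). ALDH3A1 and RASD1 had opposite signs with the 2 extracts: ALDH3A1 1.57 and -1.03, RASD1 1.25 and -0.45, neither Bupleuri value passing (adjusted p = 0.0599 and 0.16). The Aconiti call of ALDH3A1 was lost without replicate 3 of the high dose. TXNIP, which did not pass with Aconiti, was at -1.13 with Bupleuri. The doses of the 2 extracts are not matched, and their part in these differences was not tested.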

How the results depend on the processing

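The 1519 genes changed between doses became 2525 with only the 5 libraries in the fit (16286 tested), 540 with all 56 libraries of replicated groups, 217 with the divergent library kept in and 822 with GC offsets and that library kept in. Without replicate 3 of low-dose Bupleuri, chosen after seeing the data, there were 2281. Leaving out each of the 5 libraries gave 679 to 1182, and replicates 2 and 3 of the high dose, with 855 and 679, left a lone high-dose library that is assumed to vary like the other groups. The 3792 genes that differed from Bupleuri became 1820 with 56 libraries, 696 with the divergent library and 2012 with GC offsets and that library, and 2845 to 3467 when 1 Aconiti library was left out. Higher genes made up 43.8% of the calls, 61.3% with the divergent library kept in and 25.3% with GC offsets added to it. With a replicate block 1406 and 3665 genes were called. Of 40 same-numbered pairs of libraries 2 correlated above 0.1. Their median was 0.04, against -0.02 in the 80 other pairs, and 9 of 17 libraries correlated best with their own number. These values do not settle whether the replicate numbers pair the samples. Of 124 called genes followed, 46 kept their call in every alternative, 17 lost it when 1 Aconiti library was left out, 62 with the divergent library and 28 with GC offsets and that library. With that library 4 reversed without passing: GCLM -0.0064, DNAJB9 -0.038, FADS2 0.18 and PHLDA3 0.014. DESeq2 called 1263 genes. With the divergent library the list of ATF4 genes had 8 rises and that of cholesterol genes 0 falls, and the matrix list 1 fall; with GC offsets added these were 6, 7 and 13. With 2 libraries against 3, the size of difference that could be detected was not measured per level.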

Other observations

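Further named genes and lists are given here. KRTAP1-5 and KRTAP2-3, keratin-associated genes with close relatives whose reads may be shared, were among the largest rises at 2.98 and 2.07 against 0.699 to 0.808 CPM and at 3.18 and 2.98 against 0.803 to 1.44 CPM. RASD1, a small GTPase, was at 2.42 and 2.01 against 0.808 to 1.05 CPM, and IER3, an early response gene, at 3.38 and 2.89 against 1.10 to 1.78 CPM. Of 27 hypoxia and glycolysis genes 3 rose and 2 fell (0 falls without replicate 2 of the high dose, and 1 without its replicate 3 or without replicate 2 or 3 of the low dose). NDRG1 and VEGFA, which hypoxia raises, rose by 0.49 ± 0.06 and 0.25 ± 0.04. The metallothionein MT2A, which has close copies, was at 303 and 291 against 200 to 211 CPM. Of 27 lysosomal genes 6 rose and 0 fell (3 without replicate 3 of the high dose), among them the cholesterol exporter NPC1 (0.42 ± 0.05), the autophagy receptor SQSTM1 (0.27 ± 0.04) and the protease CTSL (0.27 ± 0.05).

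Of 12 tested Wnt feedback and R-spondin receptor genes 3 fell and 2 rose (0 rises without replicate 3 of the high dose or replicate 2 of the low dose, and 1 without replicate 2 of the high dose or replicate 1 of the low dose), with LGR6 at 5.72 and 5.40 against 8.25 to 8.48 CPM, LGR4 lower by 0.27 ± 0.05 and the transcription factor TCF7 lower by 0.39 ± 0.06. The small heat shock protein gene HSPB1 fell by 0.46 ± 0.06, while 13 of 15 heat shock genes did not pass. TNFRSF10B, a death receptor among the p53 targets, rose by 0.32 ± 0.04 and PHLDA3 fell by 0.34 ± 0.06. None of 30 cytosolic ribosomal protein genes and 1 of 29 proteasome genes (lower, a call lost when any of 4 of the 5 libraries was left out) passed edgeR's test. PTPRC, the leukocyte phosphatase CD45, was at 7.79 and 7.28 against 12.8 to 13.1 CPM. It was the 1 called member among 6 tested microglia and leukocyte markers, whose median log2 fold change was 0.024. PTPRC did not pass with the left-out library kept in (edgeR, adjusted p = 0.106), but passed once GC offsets were added. AIF1 and TYROBP, of the same markers, had no more than 1 and 0 counts in any library of the set.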
